A study of Homo sapiens with 2 samples.

Results

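Amino acid transporters of the plasma membrane are described here by 10 genes: SLC1A1, SLC1A3, SLC1A4, SLC1A5, SLC3A2, SLC7A5, SLC7A8, SLC7A11, SLC38A1 and SLC38A2. They were found by their symbols among the 27685 genes of the deposited gene table, and all 10 had a row. The list was drawn up around SLC1A3, which was chosen by its FPKM and counts in an earlier look at these same data: at least 100 FPKM in 1 cell line and at most 3 counts in the other. The difference of SLC1A3 between the cell lines is therefore a description, and the values of the other 9 genes are given in the same way.

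Transcriptomes were measured by RNA-seq in H2087 and H596 cells, a pair of established human cell lines that the labels call lung adenocarcinoma. Both were untreated and were grown in RPMI medium with fetal bovine serum, so that both carried the same culture condition. There was 1 library of each cell line. With no replicates, no test between the cell lines was possible, and any difference applies to these libraries and cannot be told apart from the spread between cultures. The study used the H2087 profile to keep variants that lay in or nearest to highly expressed genes, taken as an FPKM of at least 100, before it related them to outcome after surgery. FPKM is the estimated number of sequenced fragments scaled by the length of the transcript and the size of the library, and it allows genes of different length to be compared. The intervals given with it are 95% Wilson intervals, computed for the fraction of the library's count that the gene took, and they cover counting error only.

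The depth, as the sum of estimated counts, was 46961500 for H2087 and 55387847 for H596. Epithelial markers were present in both libraries, with EPCAM at 375 and 65.0 FPKM and CDH1 at 52.3 and 59.6 FPKM in H2087 and H596, respectively. Of the 5 lung adenocarcinoma markers, KRT7 was at 791 and 608 FPKM, whereas NKX2-1 was at 110 FPKM in H2087 and 0.508 FPKM in H596, and NAPSA at 21.9 and 0.0645 FPKM. The surfactant genes SFTPB and SFTPC were at or near 0 in both. The 6 squamous markers summed to 40.8 FPKM in H2087, nearly all of it SOX2, and to 307 FPKM in H596, with TP63 at 0.183 and 55.2 FPKM and KRT5 at 0 and 106 FPKM. The defining markers of H596 thus went against its label, and it is called by its name below. The 5 stromal markers summed to 3.90 and 10.7 FPKM (COL1A1 was at 3.89 and 0.916 FPKM, and DCN at 0 and 9.77 FPKM). The 4 immune markers summed to 4.15 and 0.241 FPKM, with CD79A at 3.72 and 0.0839 FPKM and PTPRC and CD3E at 0 in both. The 3 endothelial markers summed to 0.413 and 0.816 FPKM. The part of these markers in the differences below was not tested.

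Amino acids cross the plasma membrane through carriers of several families. The SLC1 family holds sodium-coupled glutamate and aspartate transporters and the neutral exchangers ASCT1 and ASCT2. SLC7 proteins such as LAT1 and xCT are light chains that reach the surface only when bound to the SLC3A2 heavy chain, and they exchange one amino acid for another. The SLC38 members concentrate small neutral amino acids with the sodium gradient. Tumor cells are known to draw on several of these carriers at once, since leucine enters by exchange for glutamine and cystine by exchange for glutamate.

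SLC7A5, SLC3A2 and SLC1A5 held the top 3 places among the 10 genes in both libraries, and all 3 were higher in H596. SLC1A3 took the last place in H2087 and the fourth in H596. Its choice by FPKM and counts largely fixed these places, so nothing is read from them. In H2087 the order was SLC7A5, SLC3A2, SLC1A5, SLC38A2, SLC38A1, SLC7A11, SLC1A4, SLC1A1, SLC7A8 and SLC1A3. In H596 it was SLC7A5, SLC3A2, SLC1A5, SLC1A3, SLC38A2, SLC38A1, SLC1A4, SLC7A11, SLC1A1 and SLC7A8. No neighbours in either order had overlapping counting intervals, but SLC7A5 exceeded SLC3A2 by only 1.05-fold and SLC1A5 exceeded SLC38A2 by only 1.06-fold in H2087, and no spread between cultures is known. At the FPKM of at least 100 that the study used, 3 of the 10 passed in H2087 (704 of all genes). In H596, 4 passed (637 of all genes), the fourth being SLC1A3. The choice of SLC1A3 by that same limit and by counts fixed that it would pass in only a single library. Nothing is therefore read from the contrast of 3 and 4. SLC38A2 sat at that limit in H2087, with an interval from 98.3 to 100.9 FPKM. The 10 genes summed to 644 FPKM in H2087 and 1199 FPKM in H596, or 0.138% and 0.291% of the FPKM of all genes.

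**Figure D1:**
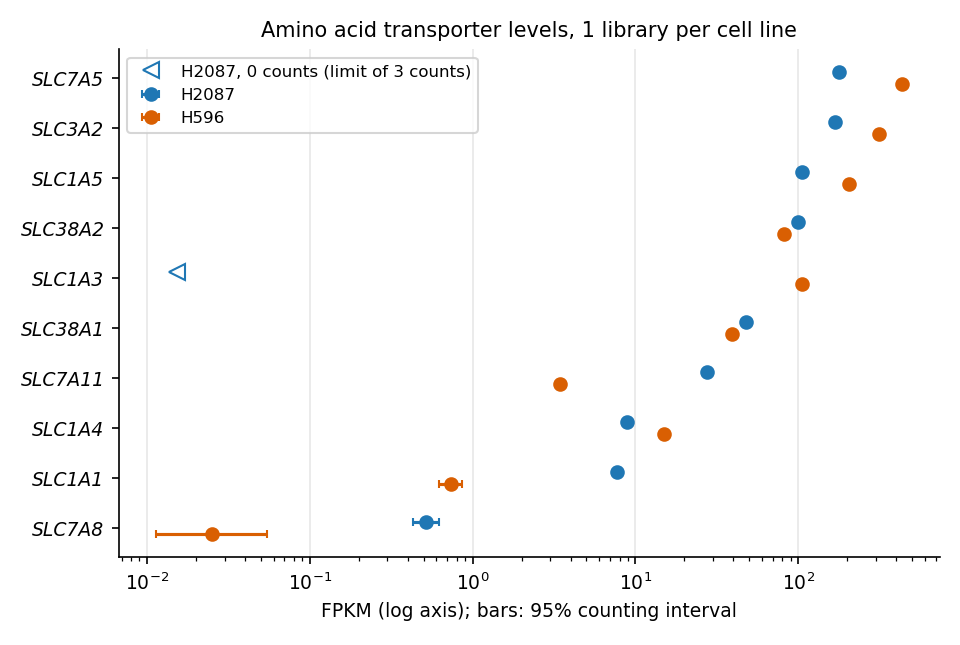
FPKM of each of the 10 transporters (log axis) in H2087 and H596, with 95% counting intervals as bars and an open triangle for the limit that 3 counts set where none was found. SLC1A3 runs from the 3-count limit of 0.0153 FPKM in H2087 to 105 FPKM in H596. For SLC38A1 and for SLC38A2, the values of the libraries lie close together.

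Of all genes whose mean FPKM reached 1, 32.4% differed at least 2-fold between the libraries on the log2(FPKM + 1) scale, 18.2% being higher and 14.2% lower in H596. Of the 10 transporters, 9 passed this filter and 4 of those differed at least 2-fold: SLC1A3 and SLC7A5 were higher in H596, and SLC1A1 and SLC7A11 were lower. SLC1A1 and SLC1A3 passed the filter only through the library in which they were high, and the list was built on SLC1A3, so nothing is read from this share. SLC1A5 and SLC3A2 lay just under the limit, with differences of 0.95 and 0.89, and SLC1A4, SLC38A1 and SLC38A2 further below it. SLC7A8 did not pass the filter, with a mean of 0.272 FPKM. The median difference over all 13047 genes that passed was 0.12, so the libraries were nearly centred on each other. This scale understates the differences of low genes, and ratios of FPKM with exact (Clopper-Pearson) counting intervals are therefore given beside it.

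**Figure D2:**
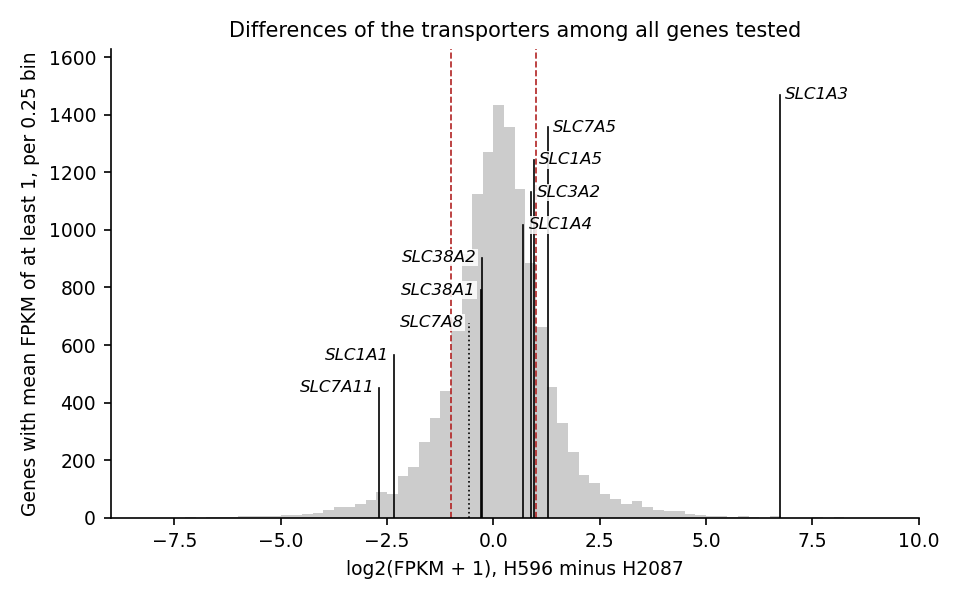
Histogram of differences (H596 minus H2087, log2(FPKM + 1) scale) over all genes that passed the filter (grey, number of genes per bin), with a vertical line for each transporter (dotted for SLC7A8, which did not pass; line height carries no value) and the 2-fold limits dashed. SLC1A3 stands at 6.73 and SLC7A11 at -2.68, with the other 8 genes between -2.33 and 1.28.

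The glutamate carriers went opposite ways. SLC1A3 (gene 6507, chr5:36606457-36688436 on hg19) encodes EAAT1, also called GLAST, the sodium-coupled glutamate and aspartate transporter best known from astrocytes. It had 0 counts in H2087, which allows up to 0.0153 FPKM at the limit of 3 counts. In H596 it had 24101 counts and 105 FPKM (104 to 107), which placed it 602nd among all genes. At that limit it was 6883-fold higher in H596, and the Wilson interval in H2087, which reaches 0.0196 FPKM, would give a smaller ratio. The difference of SLC1A3 was 6.73 on the log2(FPKM + 1) scale, with H2087 taken as 0. In bulk RNA, fewer cells that express a gene and less of its RNA per cell cannot be told apart. The 5 astrocyte markers (GFAP, AQP4, ALDH1L1, OLIG2 and SLC1A2) summed to 0.789 FPKM in H2087 and 0.0547 FPKM in H596, in the latter with GFAP and OLIG2 at 0, so other genes that mark astrocytes were at or near 0 where SLC1A3 was high. All 5 listed SLC1A3 transcripts share 1 start. NM_004172 made up 79.8% of the H596 signal (84.1 FPKM), followed by NM_001289940 with 7.88%, NM_001289939 with 6.34%, the short NM_001166696 with 3.68% and NM_001166695 with 2.31%. All 5 were at 0 counts in H2087, as the choice of the gene required within 3 counts.

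SLC1A1 (gene 6505, chr9:4490427-4587469) encodes EAAT3, the related carrier of glutamate and cysteine in epithelial and neuronal cells. It was at 7.72 FPKM (7.33 to 8.14; 1385 counts) in H2087 and at 0.732 FPKM (0.626 to 0.857; 156 counts) in H596. It was 10.5-fold lower in H596 (8.93 to 12.5), in the opposite direction to SLC1A3. The sum of both glutamate carriers was 7.72 FPKM in H2087, all of it SLC1A1, and 106 FPKM in H596, nearly all of it SLC1A3. The remaining glutamate carriers of the family were at or near 0: SLC1A6 and SLC1A7 had no counts in either library, and SLC1A2 had 6 counts in H596 only. Each library therefore held transcripts of 1 main glutamate carrier, and it was not the same one.

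The 250 bases before the start of the main transcript of each glutamate carrier are shown because these genes differed in opposite directions. They were read from the GRCh37 (hg19) reference genome, 5′ to 3′ on the strand of the gene. The window of SLC1A3, chr5:36606207-36606456 on the plus strand, is AT-rich, with 38.8% G and C and 8 CpG, and only 2.66% of the 12122 windows of genes that passed the filter had as low a G and C content or lower. The window of SLC1A1, chr9:4490177-4490426 on the plus strand, has 68.8% G and C and 18 CpG, near the medians of 64.0% and 19.5 over those windows. No capitals appear, since neither window holds any of the 3 motifs searched on both strands, which are spelled out with SLC7A5 below.
SLC1A3: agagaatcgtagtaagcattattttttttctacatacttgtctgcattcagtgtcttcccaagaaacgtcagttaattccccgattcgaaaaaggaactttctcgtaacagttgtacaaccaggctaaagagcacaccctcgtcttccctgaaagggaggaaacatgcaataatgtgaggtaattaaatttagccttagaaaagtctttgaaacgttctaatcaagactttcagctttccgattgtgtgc
SLC1A1: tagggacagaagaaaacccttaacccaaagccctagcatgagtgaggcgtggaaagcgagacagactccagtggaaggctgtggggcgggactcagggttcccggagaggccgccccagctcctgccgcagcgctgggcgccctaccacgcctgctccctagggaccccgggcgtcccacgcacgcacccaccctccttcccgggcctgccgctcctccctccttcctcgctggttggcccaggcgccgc
The sequences show the contrast in base composition. The SLC1A3 window also lies inside an intron of a longer annotated form of the gene, which the deposited table does not list as a start.

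The neutral exchangers were higher in H596. SLC1A5 (gene 6510, chr19:47278140-47291842) encodes ASCT2, which brings glutamine into the cell in exchange for other neutral amino acids. It was at 106 FPKM (104 to 108; 14447 counts) in H2087 and 206 FPKM (204 to 208; 33275 counts) in H596, a ratio of 1.95 (1.91 to 1.98). SLC1A4 (gene 6509, chr2:65215579-65251000) encodes ASCT1, which exchanges alanine, serine and cysteine. It was at 8.86 FPKM (8.48 to 9.27; 1939 counts) in H2087 and 15.1 FPKM (14.6 to 15.6; 3927 counts) in H596, a ratio of 1.70 (1.61 to 1.80). SLC1A5 exceeded SLC1A4 by 11.9-fold in H2087 and 13.7-fold in H596, so ASCT2 was the main neutral exchanger transcript in both. Their sum was 115 FPKM in H2087 and 221 FPKM in H596. Each gene was carried by 1 main transcript: NM_005628 held 97.4% and 97.5% of SLC1A5, and NM_003038 held 94.5% and 98.2% of SLC1A4.

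SLC3A2 and its light chain SLC7A5 were both higher in H596, whereas the light chain SLC7A11 was lower. SLC3A2 (gene 6520, chr11:62623484-62656355) encodes CD98hc, the heavy chain that carries the light chains to the cell surface. It was at 169 FPKM (166 to 171; 16198 counts) in H2087 and 314 FPKM (310.4 to 317; 35137 counts) in H596, a ratio of 1.86 (1.82 to 1.89). SLC7A5 (gene 8140, chr16:87863622-87903105) encodes LAT1, which takes up leucine and other large neutral amino acids. It was at 177 FPKM (176 to 179; 38720 counts) in H2087 and 434 FPKM (431 to 436; 112057 counts) in H596, a ratio of 2.44 (2.42 to 2.47). It ranked 349th among all genes in H2087 and 115th in H596, and it was the most abundant of the 10 in both. A pseudogene that shares its name, SLC7A5P2, had 110 and 220 counts, so reads placed there were few beside those of SLC7A5.

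SLC7A11 (gene 23657, chr4:139085248-139163503) encodes xCT, which imports cystine in exchange for glutamate and so feeds glutathione synthesis. It was at 27.6 FPKM (27.2 to 28.1; 12780 counts) in H2087 and 3.46 FPKM (3.31 to 3.62; 1896 counts) in H596. It was 7.98-fold lower in H596 (7.60 to 8.38), and the antisense gene that overlaps it, SLC7A11-AS1, had 3 counts in H2087 and 0 in H596. SLC7A8 (gene 23428, chr14:23594504-23652869) encodes LAT2, a light chain of transporting epithelia. It was at 0.518 FPKM (0.429 to 0.627; 106 counts) in H2087 and 0.0250 FPKM (0.0114 to 0.0545; 6 counts) in H596, 20.8-fold lower with a wide interval (9.23 to 57.8). SLC7A8 was thus low in both libraries and near the limit of 3 counts in H596, and SLC7A5 was the main LAT gene in both libraries.

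The balance among the light chains differed more than that between heavy and light chains. The 6 partners of SLC3A2 (SLC7A5, SLC7A6, SLC7A7, SLC7A8, SLC7A10 and SLC7A11) summed to 217 FPKM in H2087 and 449 FPKM in H596. The ratio of SLC3A2 to this sum was 0.776 (0.763 to 0.790) in H2087 and 0.698 (0.690 to 0.707) in H596, so heavy chain transcripts were fewer than light chain transcripts in both. SLC7A5 made up 81.6% of the light chain sum in H2087 and 96.5% in H596. SLC7A11 made up 12.7% and 0.771%, and SLC7A6, a light chain for cationic amino acids, made up 5.27% and 2.64%. The ratio of SLC7A5 to SLC7A11 was 6.42 (6.29 to 6.55) in H2087 and 125 (119.7 to 131) in H596. Protein was not measured, and the number of heterodimers at the surface cannot be read from these ratios.

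Transcripts of SLC3A2 start at sites far apart. The 3 that begin 24860 bases upstream summed to 34.8 FPKM in H2087 and 39.1 FPKM in H596, or 20.6% and 12.5% of the gene. The other 2, which start nearer the end of the gene, summed to 134 and 275 FPKM. NM_001013251 alone was at 129 and 268 FPKM, so nearly all of the surplus in H596 was assigned to 1 transcript. These are estimates of how reads divide among overlapping transcripts, and their error is not known.

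The 250 bases before the starts of SLC7A5 and of SLC3A2 transcript NM_001013251 are shown because these genes encode the pair that forms LAT1 at the surface and were higher together in H596. The motifs searched on both strands were TGATGNAA (the response element shared by ATF and CCAAT-enhancer binding proteins), TGACNNNGC (the core of the antioxidant response element) and CACGTG (the E-box), and no matches overlapped each other. They occurred in 1.43%, 11.5% and 8.03%, respectively, of the 12122 windows of the same length. SLC7A11 had no entry in the promoter table. Of the other 9 transporters, all but SLC7A5 held none. The SLC7A5 window, chr16:87903106-87903355 on the minus strand, holds CACGTG from 138 to 133 bases and TGACGCAGC from 10 to 2 bases before the start, both in capitals. It has 79.6% G and C and 33 CpG. The SLC3A2 window, chr11:62648094-62648343 on the plus strand, has 60.4% G and C and 11 CpG.
SLC7A5: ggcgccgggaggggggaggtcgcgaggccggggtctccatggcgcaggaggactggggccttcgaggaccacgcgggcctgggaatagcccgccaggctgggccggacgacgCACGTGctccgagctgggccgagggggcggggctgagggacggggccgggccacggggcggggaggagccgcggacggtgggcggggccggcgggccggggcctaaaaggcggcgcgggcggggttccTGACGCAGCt
SLC3A2: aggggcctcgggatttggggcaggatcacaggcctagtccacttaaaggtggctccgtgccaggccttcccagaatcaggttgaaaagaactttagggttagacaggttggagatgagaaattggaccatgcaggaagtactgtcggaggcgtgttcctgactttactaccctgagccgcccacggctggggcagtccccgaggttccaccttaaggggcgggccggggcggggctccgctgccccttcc
A match is a run of letters in the reference and was not measured as a bound site. The absence of a match says only that these letters are not in this window. In the annotation, 8 bases of the SLC7A5 window and 9 bases of the SLC3A2 window are exonic. Should those 8 bases adjoin the start, part of the TGACGCAGC match would lie in annotated exon.

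**Figure D3:**
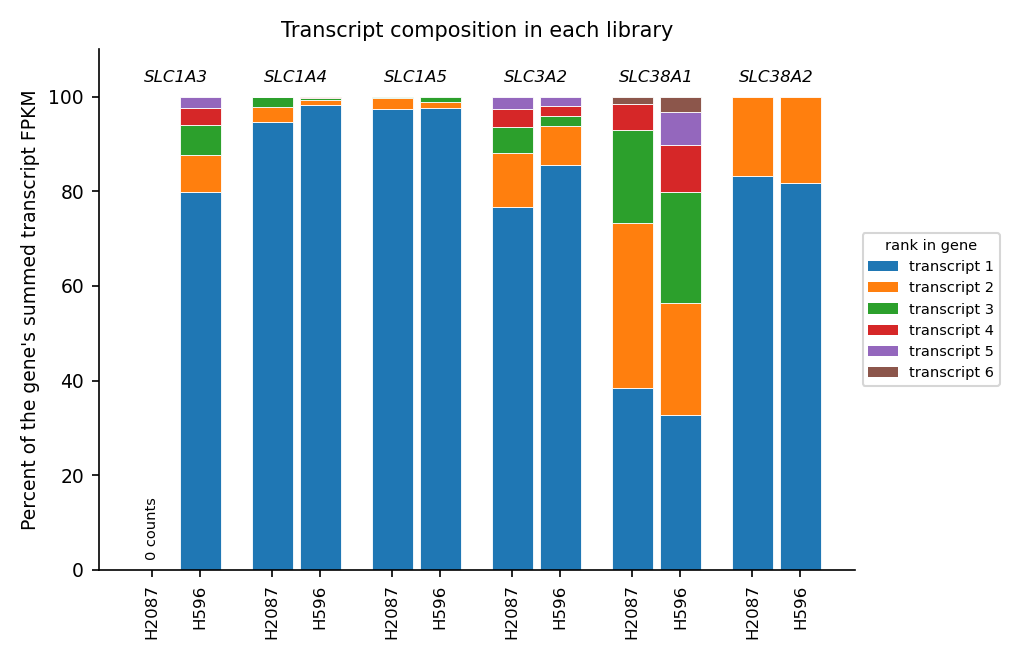
Share of each gene's FPKM (percent) assigned to each listed transcript in H2087 and H596, for the transporters that passed the filter and had more than 1 transcript; colors rank the transcripts within each gene. SLC3A2 transcript NM_001013251 holds 76.7% in H2087 and 85.6% in H596, and no bar can be drawn for SLC1A3 in H2087, where all 5 transcripts are at 0.

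The SLC38 members were close to equal in the libraries. SLC38A2 (gene 54407, chr12:46751971-46766645) encodes SNAT2, the amino acid starvation-induced carrier of glutamine, alanine and other small neutral amino acids. It was at 99.6 FPKM (98.3 to 100.9; 22850 counts) in H2087 and 82.0 FPKM (81.0 to 83.1; 22295 counts) in H596, a ratio of 0.824 (0.809 to 0.839). SLC38A1 (gene 81539, chr12:46576840-46663208) encodes SNAT1, a glutamine carrier of the same type. It was at 47.9 FPKM (47.3 to 48.6; 19226 counts) in H2087 and 39.0 FPKM (38.4 to 39.5; 18094 counts) in H596, a ratio of 0.813 (0.797 to 0.830). The genes lie next to each other on chromosome 12, and the ratio of SLC38A2 to SLC38A1 was 2.08 (2.04 to 2.12) in H2087 and 2.10 (2.06 to 2.15) in H596, with overlapping intervals.

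SLC38A1 had no single main transcript. NM_030674 held 38.4% of its FPKM in H2087 and 32.8% in H596, NM_001278387 held 34.8% and 23.5%, and NM_001077484 held 19.7% and 23.5%. NM_001278389 had 0 counts in H2087 and held 6.94% in H596. These forms are long and share most of their sequence, so that the shares rest on how the authors' program divided common reads. In SLC38A2, NM_001307936 held 83.3% in H2087 and 81.7% in H596.

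Other amino acid carriers of the plasma membrane or lysosome showed where else the libraries differed. Of 41 listed, 13 passed the filter and 28 did not reach a mean of 1 FPKM. These 28 include the 15 that had no counts in either library. Of the 13 that passed, 2 were at least 2-fold higher in H596, 2 were lower and 9 differed less (30.8% against 32.4% of all genes). The median difference was -0.23. SLC6A14, SLC43A1 and SLC43A3 passed the filter only through the library in which they were high, so nothing is read from this share. SLC6A14, which concentrates neutral and cationic amino acids, was at 0.167 FPKM in H2087 and 9.94 FPKM in H596, 59.6-fold higher (43.1 to 84.9). SLC6A9, the glycine transporter GLYT1, was at 5.77 and 38.8 FPKM, 6.73-fold higher in H596 (6.27 to 7.22). Both belong to the sodium- and chloride-coupled SLC6 family.

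The pair that was lower in H596 belongs to the SLC43 family. SLC43A1, the large neutral amino acid carrier LAT3, was at 14.3 FPKM in H2087 and 0.643 FPKM in H596, 22.3-fold lower (18.1 to 27.8). SLC43A3, a relative of LAT3 that carries purine nucleobases, was at 27.1 FPKM in H2087 and had 0 counts in H596. At the limit of 3 counts it was 1324-fold lower in H596. It was listed with its family and does not carry amino acids by that description. Without it, 3 of 12 carriers differed at least 2-fold, 1 of them lower, and the remaining 40 summed to 123 FPKM in H2087 and 147 FPKM in H596. LAT3 transcripts, and the few of LAT2, were thus lower in the library in which LAT1 transcripts were higher. SLC43A2, also listed with this family, differed far less, at 1.05 FPKM in H2087 and 0.886 FPKM in H596.

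Among the more abundant of these carriers, SLC7A1, a carrier of arginine and lysine, was at 26.9 FPKM in H2087 and 23.8 FPKM in H596. SLC38A10 was at 17.3 and 31.5 FPKM, and SLC6A6, the taurine transporter, at 15.6 and 8.35 FPKM. All 41 summed to 151 FPKM in H2087 and 147 FPKM in H596, less than SLC7A5 alone in either library. The 10 transporters, at 644 and 1199 FPKM, summed to more than the other 41. They were chosen with earlier results known, and SLC1A3 for its level, so nothing is read from this contrast.

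Enzymes that use or make glutamine, glutamate and related amino acids differed in both directions, and those past 2-fold were lower in H596. Of 12 listed, 10 passed the filter. At 2-fold, 0 of them were higher (18.2% of all genes) and 4 were lower (14.2% of all genes), GLS2, GOT1 and GPT2 among them, with a median difference of -0.80. GLS2 passed the filter only through H2087. GLS2, a glutaminase of liver type, was at 11.0 FPKM in H2087 and 0.157 FPKM in H596, 69.8-fold lower (47.1 to 108). It releases glutamate from glutamine, and its transcripts were lower in the library in which the glutamine exchanger SLC1A5 was higher. PSAT1, of serine synthesis, was at 73.8 and 130.5 FPKM, higher in H596 by less than 2-fold.

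Among partners of cystine uptake, both subunits of the enzyme for the first step of glutathione synthesis were lower in H596, as SLC7A11 was. GCLC, the catalytic subunit of glutamate-cysteine ligase, was at 179 FPKM in H2087 and 21.0 FPKM in H596, 8.55-fold lower (8.29 to 8.82). GCLM, its modifier subunit, was at 32.3 and 4.63 FPKM, 6.99-fold lower (6.59 to 7.41). SLC7A11 was 7.98-fold lower, so that these 3 genes differed by similar ratios. The next enzyme, GSS, was at 81.6 and 89.9 FPKM, and GPX4, which uses glutathione against lipid peroxides, at 272 and 201 FPKM. Of the 9 genes of this list, all of which passed the filter, 1 was at least 2-fold higher, 2 were lower and 6 differed less (33.3% called against 32.4% of all genes), with a median of -0.56. The share for the whole list was thus that of all genes. The one that was higher was CHAC1, which degrades glutathione, at 4.89 and 19.0 FPKM.

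Genes listed under leucine sensing at the lysosome, where amino acid supply controls mTORC1, differed in both directions. SLC38A9 was listed here and also among the 41 carriers. Of 17 that passed the filter, 5 were at least 2-fold higher in H596 (RRAGA, RRAGB, RRAGC, SESN1 and SESN2) and 2 were lower (RRAGD and LAMTOR5). These made 41.2% called against 32.4% of all genes, with a median difference of 0.14 over the 17. RRAGB, a Rag GTPase, was at 1.83 FPKM in H2087 and 12.1 FPKM in H596, 6.61-fold higher (5.67 to 7.74). RRAGD, which belongs to the other class of Rag GTPase, was at 5.58 and 0.454 FPKM, 12.3-fold lower (10.2 to 14.9). It passed the filter only through H2087. The Rag genes thus differed in both directions. LAMTOR1, which anchors the Ragulator complex, was at 93.1 and 88.8 FPKM, and MTOR itself at 11.7 and 19.0 FPKM. Over all 3 lists, 36 of 38 genes passed the filter and 14 differed at least 2-fold (38.9% against 32.4% of all genes), with a median difference of -0.43.

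**Figure D4:**
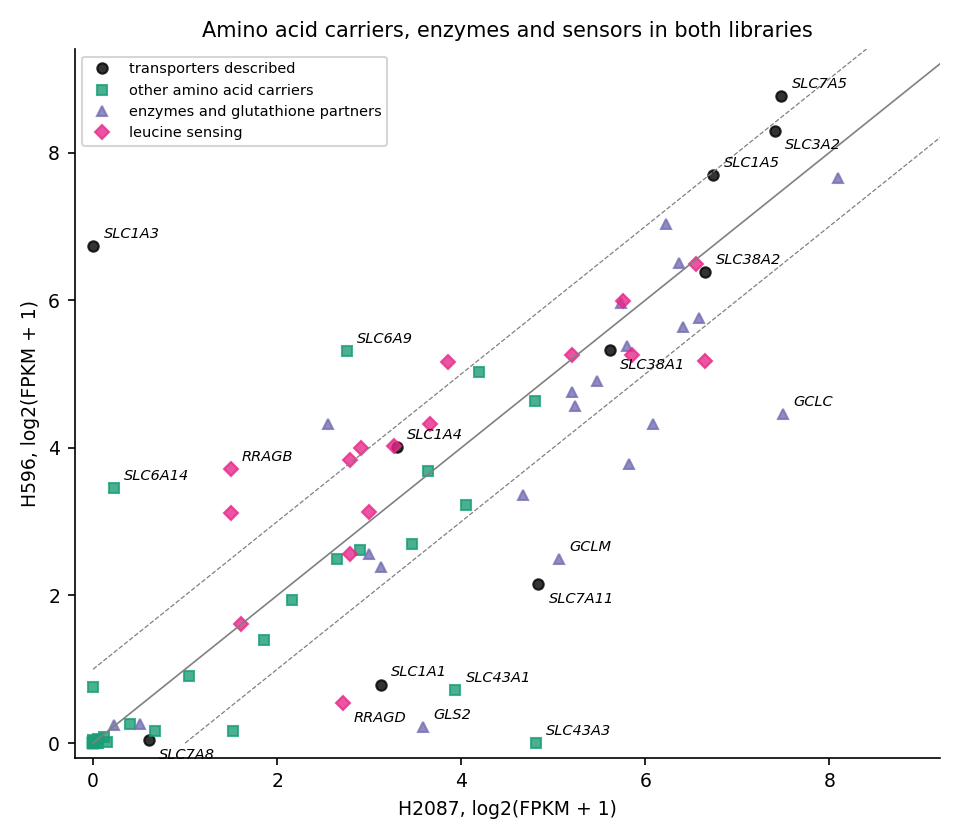
Level in H596 against level in H2087, both as log2(FPKM + 1), with equality as a solid line and the 2-fold limits dashed. Shown are the 10 transporters, 41 other amino acid carriers and 38 enzymes, glutathione partners and genes listed under leucine sensing. SLC38A9 is in both of the latter groups and is drawn with the carriers only. SLC7A11, GCLC and GCLM lie together below the lower dashed line, SLC1A3 on the left edge and SLC43A3 on the bottom edge.

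Genes near the transporters on their chromosomes were compared, since a region can differ as a block between cell lines. The measure was the median difference of the 20 nearest genes that passed the filter, 10 on each side. For SLC1A1, near the end of chromosome 9, only 16 were found. Their median was 1.35 (0.88 over the nearest 40 genes sought). Of the 16, 11 were at least 2-fold higher in H596, against 18.2% of all genes. SLC1A1 itself was lower, with a difference of -2.33 that lay below all 16. For SLC1A3 the median was 0.61 (1.41 over the nearest 10 genes and 0.97 over 40). Of its 20 neighbours, 9 were at least 2-fold higher, also against 18.2% of all genes. The highest value was 2.51, below the 6.73 of SLC1A3. The choice of SLC1A3 by its FPKM and counts largely fixed that difference, so nothing is read from its place. Its nearest neighbours, NIPBL-AS1 and NIPBL, had differences of 1.49 and 1.67.

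For SLC1A5 the median of the neighbours was 0.83, close to its own 0.95. Of these 20 neighbours, 8 were at least 2-fold higher in H596, against 18.2% of all genes. The neighbours of the remaining transporters had medians between -0.33 (SLC7A5) and 0.05 (SLC7A8). Those of SLC3A2 include SNHG1 and several small nucleolar RNA genes. The nearest of these, SNORD25 and SNORD26, had 27 and 21 counts in H2087 and 14 and 12 in H596. The stretch that the neighbours covered ran from 0.745 Mb (SLC7A8) to 12.9 Mb (SLC7A11). The 20 neighbours of SLC7A11 lay between -1.01 and 1.03, all above its own -2.68. SLC7A5 lay above 19 of its 20 neighbours, of which the nearest, MIR6775, lies within the gene. DNA copy number was not measured in these libraries, and its part in these differences was not tested.

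**Figure D5:**
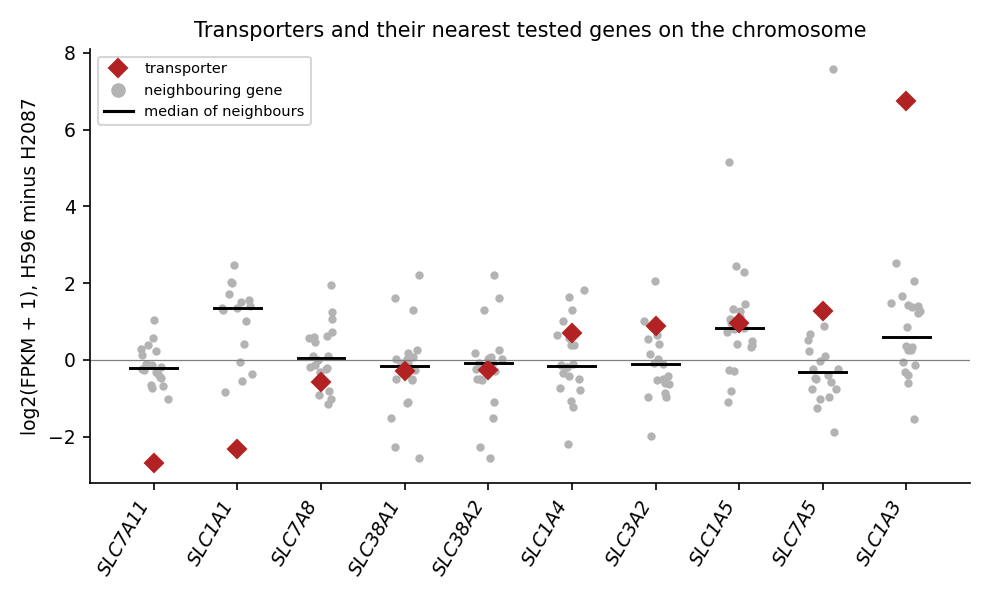
Difference of log2(FPKM + 1), H596 minus H2087, of each transporter (diamonds) and of the 20 nearest genes (grey points; 16 for SLC1A1), with the neighbours' median as a bar. SLC1A1 and SLC7A11 lie below all of their neighbours. SLC1A3 lies above all of its own, which its choice by FPKM and counts largely fixed.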

How the data were processed

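RNA-seq data of 1 library each of untreated H2087 and H596 cells were processed. The authors prepared stranded mRNA libraries, and per the submitters' processing notes used bcl2fastq 1.8.4, Trimmomatic, HISAT2 2.0.5 and StringTie 1.3.3b with hg19. They deposited estimated counts, as whole numbers, and FPKM values for 27685 genes and 63714 RefSeq transcripts. How the authors derived the estimated counts is not given in the sources used here. The deposited FPKM values were scaled by the authors to transcript length and library size, and each transporter's gene value equals the sum over its transcripts. Transcript lengths and positions were taken as deposited. Isoforms share reads, so that their shares depend on the authors' estimation.

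The transporters and all gene lists were chosen with earlier results of these data known. Differences are H596 minus H2087 of log2(FPKM + 1), that is, with a pseudocount of 1. They were taken over the 13047 genes whose mean FPKM reached 1 (1 row per symbol), and a 2-fold limit replaced a test, since there was 1 library per cell line. FPKM intervals are 95% Wilson intervals, ratios have exact (Clopper-Pearson) intervals, and 3 counts is the limit for a count of 0. These cover counting error only, at total counts of 46961500 (H2087) and 55387847 (H596). All 10 transporters are named. Of the other lists, the named genes are those with a difference of at least 2 (at most 6 in each direction) and the 5 of highest mean FPKM among carriers and among enzymes and sensors. The other listed genes, markers and neighbours with values were named after their values were seen. The values of 1 listed enzyme are not reported here. Promoter windows (250 bases) were read from GRCh37, and 9 of the 10 transporters had an entry in the promoter table. Alternatives were a pseudocount of 0.1, TPM, centring on the median, TMM-scaled counts (edgeR 4.0.16, R 4.3.3), the highest transcript, other filters and folds, other light chains, and 10 or 40 neighbours. Calls and intervals were tested on simulated data. Python 3.11.15, pandas 2.3.3 and scipy 1.17.1 were used.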

Additional observations from a re-analysis of the deposited data

How the results depend on the processing

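No paired analysis was possible because H2087 and H596 had 1 library each, which also meant that neither could be left out. No transporter changed direction under any alternative. The 4 transporters called at 2-fold were 7 at 1.5-fold (77.8% against 54.6% of all genes). They were 6 with TPM (66.7% against 37.5%), which added SLC1A5 and SLC3A2. With the highest transcript of each gene they were 5 (55.6% against 32.0%), which added SLC3A2. As above, nothing is read from these shares. SLC7A8 (-0.57) passed the 2-fold limit with a pseudocount of 0.1 (-2.31) and with TMM-scaled counts (-1.61), and SLC1A3 ranged from 6.41 to 10.04. The 4 other carriers were 2 of 6 at a mean FPKM of at least 10 (33.3% against 29.6% of all genes). At 1.5-fold they were 7 (53.8% against 54.6%). The 14 enzymes, partners and sensors were 9 of 25 at a mean FPKM of at least 10 (36.0% against 29.6%). They were 23 at 1.5-fold (63.9% against 54.6%) and 6 at 4-fold (16.7% against 10.1%). The ratio of SLC3A2 to its light chains was 0.821 in H2087 and 0.718 in H596 with the 3 described light chains only, and 0.602 and 0.600 with the highest transcript, so that the difference between the libraries was then nearly gone. The cause of these shifts beyond the altered limits and transcripts was not tested. Of all 4226 genes called, 56.2% were higher in H596, against 65.6% with TPM, 49.1% after centring and 50.5% with TMM. The median difference was 0.12 as deposited, 0.30 with TPM and 0.01 with TMM. Over all genes the count was 1986 of 6708 at a mean FPKM of at least 10. It was 7123 of 13047 at 1.5-fold and 1322 of 13047 at 4-fold. With counts of 6 and 0, SLC7A8 in H596 and SLC1A3 in H2087 were limited by depth. The neighbours' medians moved by less than 1 SD among neighbours with 10 or 40 genes, but with 10 that of SLC7A5 went from -0.33 to 0.03, that of SLC7A8 from 0.05 to -0.22 and that of SLC3A2 from -0.10 to -0.55. Leaving out SLC43A3, an alternative chosen after seeing the data, gave 3 other carriers.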
